A study of Saccharomyces cerevisiae with 28 samples.

Results

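Transcripts of 9 genes of thiamine (vitamin B1) and pyridoxine (vitamin B6) metabolism were followed in a pair of baker's yeasts (Saccharomyces cerevisiae) that fermented with 0 to 50% sucrose. The genes are THI2, THI4, THI6, THI7, THI20, THI21, THI22, SNZ1 and SNO1. They are 9 of the 5449 S. cerevisiae genes named on the array. Their probe sets were found by gene symbol alone, and each of the 9 genes had 1 probe set.

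The yeasts are called HS and LS in the labels, which explain neither name and give no genotype. Cells of each were taken 60 min into fermentation in a medium that the labels call LF and do not describe further, with 0, 5, 10, 20, 30, 40 or 50% sucrose. Each of the 14 groups, 7 of HS and 7 of LS, had 2 Affymetrix arrays, so 28 arrays were read. The labels leave unsaid whether a group's arrays stem from different cultures. A p-value here reflects no more than how far arrays lie apart within the groups, which may be technical. The deposited value is a ratio of a gene's signal to that gene's own usual level, and each of the 9 genes had a median of 1 over the 28 arrays. A ratio therefore compares arrays within a gene and says nothing about which of several genes is the more abundant.

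Thiamine is built from a thiazole ring and a pyrimidine ring that are made separately and then joined. In yeast THI4 makes the thiazole, enzymes of the THI5 family make the pyrimidine from histidine and pyridoxal phosphate, THI20 and THI21 phosphorylate the pyrimidine, and THI6 joins the rings. Thiamine pyrophosphate, the active form, is the cofactor of pyruvate decarboxylase, the enzyme that commits pyruvate to ethanol, and of transketolase. The pathway is known to be switched off by external thiamine and switched on in its absence through the regulators THI2, THI3 and PDC2. Pyridoxal phosphate, the active form of vitamin B6, is made by a complex of SNZ1 and SNO1, where SNO1 releases ammonia from glutamine and SNZ1 builds the ring. SNZ1 and SNO1 are known for high expression in stationary phase and on nutrient limitation.

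The array also carries probe sets of the fission yeast S. pombe, which serve as a background. On 22 arrays their median ratio was 0.119 to 0.994. On 6 arrays, replicate 2 of every LS group except 40%, it was 1.51 to 13.7. The correlation over genes between replicates 1 and 2 was r = -0.222 to 0.501 in those groups, while the LS pair at 40% had r = 0.870 and the 7 HS pairs had r = 0.471 to 0.725. Results are therefore given with all 28 arrays and also without these 6, and the part that the 6 arrays play in a result was not tested. With them left out, LS has 1 array at every concentration but 40%, and a lone array is assumed to vary like the other groups. For LS at 5-20% that leaves 3 arrays of 6.

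Sucrose at 5, 10 and 20% was pooled as the range to which 0, 30, 40 and 50% were compared, so the comparisons within a yeast share those arrays. Differences are log2 differences ± SE from limma, and a difference was called at a Benjamini-Hochberg adjusted p under 0.05 over all 5498 S. cerevisiae probe sets. The spread was estimated once per probe set over all groups, so a test within HS also carries the gaps between LS arrays. For THI4 at 5-20% against 0% in HS the SE was 0.89 with all arrays and 0.45 with HS fitted alone. Over 12 such comparisons with all 28 arrays, 7 calls were made, and they fell on 2 of the 9 genes, THI4 and THI2. All 7 calls were also made without the 6 LS arrays, where 24 calls fell on 7 of the 9 genes. Of the 108 member tests 6.48% were called with all arrays and 22.2% without the 6, beside 6.96% and 23.7% of the tests over all probe sets, so the members were called about as often as probe sets in general. The members' median difference from 5-20% in HS was 0.84 at 40% and 0.60 at 50%, beside -0.06 and -0.13 for all probe sets. In LS it was -0.33 at 40% and -0.52 at 50%, beside -0.25 and -0.26.

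THI4 encodes the thiazole synthase, which gives up a sulfur atom of its own protein and works a single time. In HS yeast its ratio was 1.37 and 1.02 without sucrose, 0.137 and 0.12 at 5%, 0.146 and 0.102 at 10%, and 0.0681 and 0.0992 at 20%. It was 0.0899 and 0.339 at 30%, 0.977 and 1.46 at 40%, and 2.03 and 2.90 at 50% sucrose. The levels thus formed a trough: all 6 arrays at 5-20% lay below both arrays without sucrose and below all 4 arrays at 40 and 50%, while the range at 30% overlapped that at 5-20%. In RNA from a whole culture, fewer cells with a transcript and less of it per cell cannot be told apart.

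THI4 in HS yeast was lower at 5-20% sucrose than at 0% by a log2 difference of -3.44 ± 0.89, which is 10.9-fold (adjusted p = 0.0181). In that comparison 8.35% of all probe sets were called and 5.51% were called lower, and THI4 was the 1 member called. Leaving out either array without sucrose ended this call, with an adjusted p of 0.246 without the first and 0.122 without the second. The median S. pombe probe set moved the other way, by 1.05.

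At 40% against 5-20% sucrose THI4 rose in HS by 3.46 ± 0.89, or 11-fold (adjusted p = 0.0421). It was the 1 member called, where 2.42% of all probe sets were called and 0.873% were called higher. This call is near the threshold: it held in 21 of 38 alternative settings and was lost without either HS array at 40%, at an adjusted p of 0.232 without the first and 0.526 without the second. At 50% against 5-20% the rise was 4.48 ± 0.89, or 22.3-fold (adjusted p = 0.00192), and THI4 was 1 of 2 members called where 15.1% of all probe sets were called and 8% were called higher. That call was lost without the second HS array at 50% (adjusted p = 0.0698). The median S. pombe probe set in HS was lower than at 5-20% by -0.80 at 40% and by -0.31 at 50%. Without the 6 LS arrays the differences had the same size, and the adjusted p was 0.000168 at 5-20% against 0%, where 34.1% of all probe sets were called, 0.000367 at 40%, where 21.5% were, and 1.78e-05 at 50%, where 47.3% were.

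In LS yeast THI4 had ratios of 3.97 and 0.466 without sucrose, 0.916 and 0.425 at 5%, 1.23 and 0.395 at 10%, and 3.12 and 1.04 at 20%. It had 2.49 and 4.07 at 30%, 5.38 and 3.03 at 40%, and 8.46 and 0.586 at 50%. The arrays of a pair differed 14.4-fold at 50% and 8.53-fold without sucrose, so neither end of the series has a settled level. THI4 was not called in LS: the difference from 5-20% was 2.13 ± 0.89 at 40% (adjusted p = 0.104; 95% interval 0.28 to 3.99) and 1.27 ± 0.89 at 50% (adjusted p = 0.316; 95% interval -0.58 to 3.13). Without the 6 arrays THI4 was higher in LS by 1.41 at 40% (adjusted p = 0.0332) and by 2.48 at 50% (adjusted p = 0.00712), where 54% and 49.7% of all probe sets were called.

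THI2 encodes a transcriptional activator of the thiamine genes. Its ratio in HS yeast was 0.283 and 0.299 without sucrose, 0.507 and 0.354 at 5%, 0.53 and 0.29 at 10%, and 0.319 and 0.354 at 20%. It was 0.268 and 0.316 at 30%, 0.592 and 2.42 at 40%, and 3.77 and 2.81 at 50%. The levels were even up to 30% sucrose, and both arrays at 50% lay above every other HS array. Unlike THI4, THI2 had no trough: its difference of 5-20% from 0% was 0.39 ± 0.60 (95% interval -0.85 to 1.64).

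At 50% against 5-20% sucrose THI2 rose in HS by 3.09 ± 0.60, or 8.51-fold (adjusted p = 0.00157), and this call was made in all 38 alternative settings. At 40% the difference was 1.65 ± 0.60, not called with all arrays (adjusted p = 0.187) and called without the 6 LS arrays (adjusted p = 0.0253, where 21.5% of all probe sets were called). Both arrays at 40% lay above all 6 at 5-20%, but they differed from each other 4.09-fold.

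In LS yeast THI2 had ratios of 0.947 and 1.66 without sucrose, 1.21 and 1.44 at 5%, 1.05 and 1.12 at 10%, 1.86 and 0.754 at 20%, and 3.27 and 0.908 at 30%. Its highest level was at 40%, with 5.87 and 3.39, and at 50% it had 1.81 and 1.52. The pair at 40% lay above every other LS array. The difference of 40% from 5-20% was 1.90 ± 0.60, or 3.74-fold (adjusted p = 0.0324), and THI2 was the 1 member called where 17.9% of all probe sets were called and 9.73% were called higher. The call was lost without the second array at 20% (adjusted p = 0.0602), without the first (0.295) or the second (0.124) array at 40%, after quantile normalization (0.206) and with LS fitted alone (0.199, where 4.17% of all probe sets were called). The median S. pombe probe set was lower at 40% than at 5-20% by -2.42 in LS with all arrays and by -0.91 without the 6. At 50% the LS difference of THI2 was 0.47 ± 0.60 (adjusted p = 0.599).

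**Figure D1:**
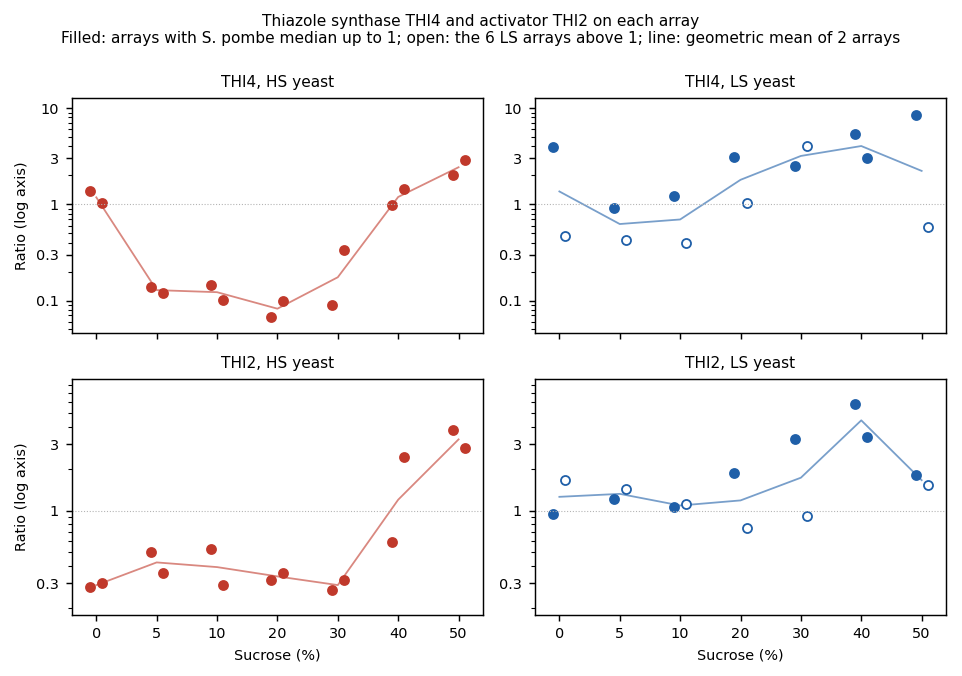
Ratios of THI4 (thiazole synthase) and THI2 (activator) on each array, on a log axis, against sucrose in percent, with HS in the left panels and LS in the right. Open points are the 6 LS arrays whose median S. pombe ratio exceeded 1, filled points the other arrays, and lines join the geometric means of the 2 arrays. In HS, THI4 lay at 0.0681 to 0.146 from 5 to 20% and at 0.977 or more at 0, 40 and 50%, while THI2 was highest at 50% in HS and at 40% in LS.

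THI20 encodes a kinase that adds both phosphates to the pyrimidine and also has a thiaminase part. In HS yeast its ratio was 1.04 and 0.705 without sucrose, 0.499 and 0.543 at 5%, 0.459 and 0.767 at 10%, and 0.731 and 1.09 at 20%. It then had 1.79 and 2.08 at 30%, 3.68 and 1.46 at 40%, and 1.53 and 0.759 at 50%. The 4 arrays at 30 and 40% thus lay above all 8 at 0 to 20%, and the range at 50% overlapped that at 5-20%.

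The THI20 difference from 5-20% in HS was 1.57 ± 0.58 at 30% (95% interval 0.36 to 2.78) and 1.83 ± 0.58 at 40% (95% interval 0.63 to 3.04), and neither passed the test with all arrays (adjusted p = 1.0 at 30% and 0.116 at 40%). After quantile normalization both did, at 3.13 (adjusted p = 0.0061, where 1.24% of all probe sets were called) and 3.01 (adjusted p = 0.00089, where 15.1% were). At 30% limma called 0 members in HS and 0.0182% of all probe sets. An unadjusted p under 0.05 was found there for 1 member and for 2.46% of all probe sets. Without the 6 LS arrays THI20 was called at 40% (adjusted p = 0.00914). In LS yeast THI20 had 1.43 and 0.616 without sucrose, 0.93 and 0.727 at 5%, and 1.21 and 0.956 at 10%. Its highest level came at 20%, with 2.83 and 10.1, followed by 1.89 and 3.74 at 30%, 1.33 and 0.786 at 40%, and 0.687 and 0.643 at 50%. Its highest group means were therefore at 30 and 40% in HS and at 20 and 30% in LS. The HS minus LS difference of the response at 40% was 2.55 ± 0.82 (adjusted p = 0.172 with all arrays, where 0.418% of all probe sets were called, and 0.018 without the 6, where 27.5% were).

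THI21 encodes a related kinase of the same step. In HS yeast it ranged from 0.676 to 1.41, the narrowest range of the 9 genes in this yeast, and its 2 arrays without sucrose (0.676 and 0.724) lay below all 6 at 5-20% (0.931 to 1.33). In LS yeast it had 0.87 and 0.269 without sucrose, 0.7 and 0.527 at 5%, 0.914 and 0.385 at 10%, and 1.79 and 4.72 at 20%. It had 1.40 and 1.19 at 30%, 0.768 and 0.427 at 40%, and 0.553 and 0.413 at 50%. The LS arrays at 20% thus held its highest values, as they did for THI20. Over the 14 LS arrays the log2 ratios of THI20 and THI21 had r = 0.938, and over the 14 HS arrays r = 0.225, a description of arrays that share an array's scaling.

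THI22 encodes a protein similar to THI20 and THI21 that is not needed for thiamine synthesis. It had 0.689 to 1.15 on the 10 HS arrays from 0 to 30%, 1.15 and 1.94 at 40%, and 2.11 and 1.06 at 50%. In LS it had 1.99 and 5.63 at 20% and 2.71 and 2.90 at 30%, while its arrays at 50% (0.489 and 0.51) were the lowest of its 28 arrays. The difference of 50% from 5-20% in LS was -1.54 ± 0.58 (adjusted p = 0.0619). At 50% in LS limma called 0 of the 9 members with all arrays, where 22.1% of all probe sets were called. There 3 members and 35.4% of all probe sets had an unadjusted p under 0.05.

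THI6 encodes the bifunctional enzyme that phosphorylates the thiazole and joins it to the pyrimidine. In HS it had 1.45 and 1.13 without sucrose, 0.719 to 0.971 on the 6 arrays at 5-20%, 1.04 and 1.31 at 30%, 2.09 and 1.17 at 40%, and 1.22 and 0.982 at 50%. All 6 arrays at 5-20% lay below the 8 others, as for THI4 but over a narrower range. The difference of 5-20% from 0% was -0.55 ± 0.55 (adjusted p = 0.674) and that of 40% from 5-20% was 0.84 ± 0.55 (adjusted p = 0.628). In LS its highest values were again at 20%, with 1.77 and 2.42, and the other LS arrays had 0.188 to 1.32.

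THI7 encodes the plasma membrane thiamine transporter. In HS it had 0.492 to 1.09 on the 8 arrays from 0 to 20%, 1.28 and 1.15 at 30%, 3.17 and 0.828 at 40%, and 1.44 and 0.926 at 50%. The arrays at 40% differed 3.83-fold, and the difference from 5-20% was 1.09 ± 0.67 (adjusted p = 0.577). In LS it had 1.53 and 0.296 without sucrose, 0.527 to 2.47 at 5-20%, 1.06 and 1.39 at 30%, 1.55 and 0.939 at 40%, and 0.796 and 0.303 at 50%. The LS difference at 50% was -1.62 ± 0.67 (adjusted p = 0.0913; 95% interval -3.03 to -0.21).

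The high values of THI6, THI20, THI21 and THI22 in LS at 20% lie inside the pooled range, so 20% was also set against 5 and 10% in each yeast, a comparison chosen after these values were seen. In LS the log2 difference was 1.86 ± 0.59 for THI6, 2.51 ± 0.61 for THI20, 2.28 ± 0.58 for THI21 and 1.80 ± 0.61 for THI22, each at an adjusted p of 0.345. limma called 0 of the 9 members and 0% of all probe sets, while 5 members and 12.2% of all probe sets had an unadjusted p under 0.05. Leaving out the first LS array at 10% or at 20% left that group with its second array only, which is among the 6. Without the first at 10% the difference was 2.46 for THI6, 2.59 for THI20 and 2.59 for THI21. Without the first at 20% it was 3.43 for THI20 and 2.98 for THI21. Without the 6 LS arrays the differences were 1.02 for THI6, 1.42 for THI20, 1.16 for THI21 and 1.47 for THI22, none of them called, where 0.0728% of all probe sets were. In HS the differences of the same 4 genes were -0.43 to 0.68, and limma called 0 members and 0% of all probe sets. There 0 members and 0.2% of all probe sets had an unadjusted p under 0.05. The HS minus LS difference was between -2.44 and -1.82 for these genes (adjusted p = 0.999 each), with 0% of all probe sets called. Here 4 members and 2.38% of all probe sets had an unadjusted p under 0.05. The median S. pombe probe set was lower in LS at 20% than at 5 and 10% by -1.88 with all arrays and by -0.73 without the 6.

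**Figure D2:**
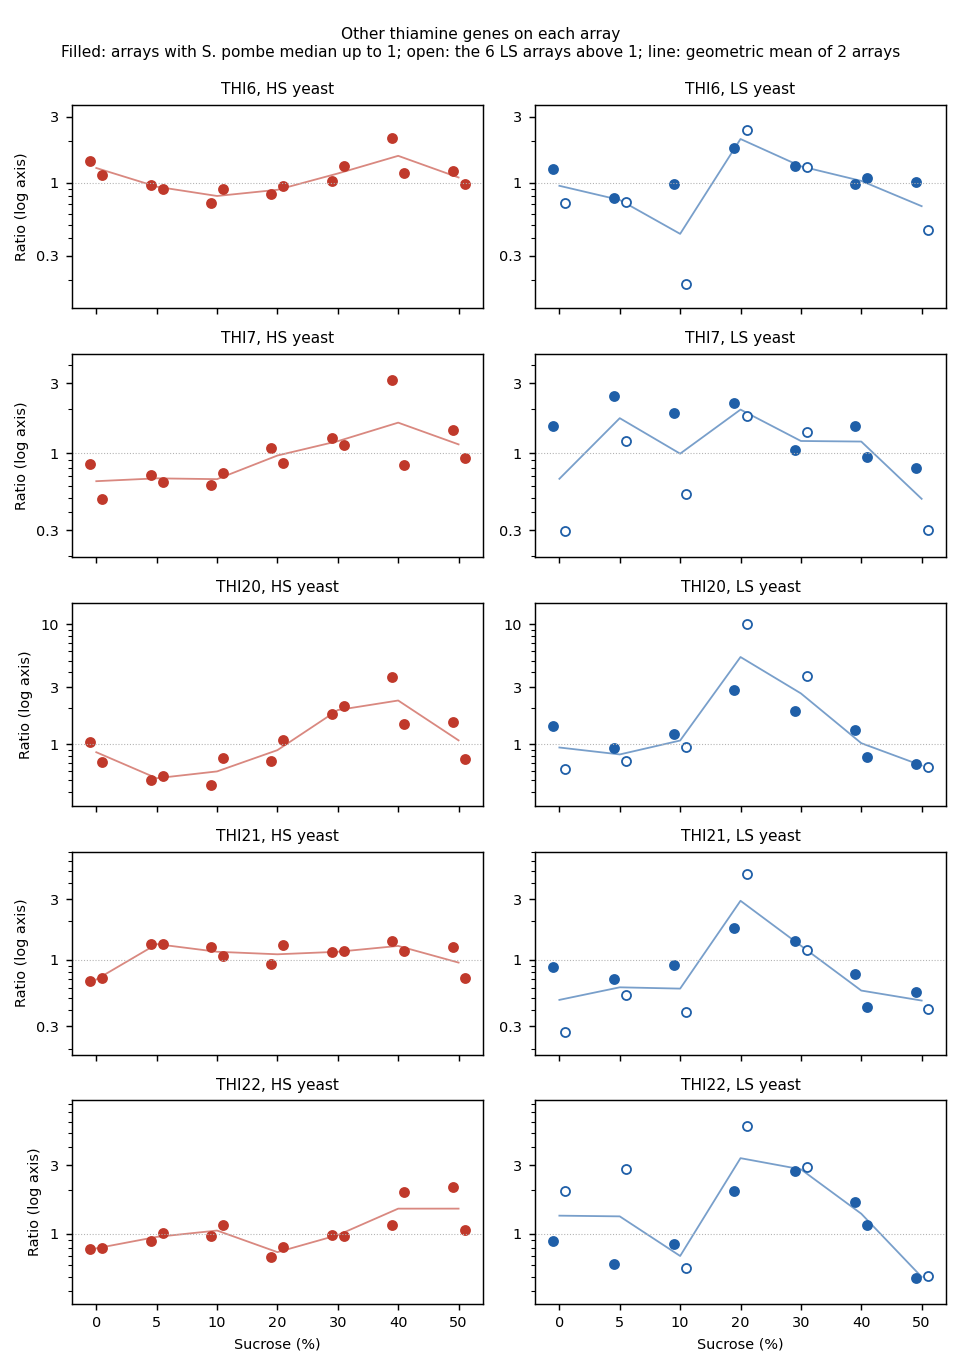
Ratios of THI6, THI7, THI20, THI21 and THI22 on each array, on a log axis, against sucrose in percent, with HS left and LS right. Points and lines are as in the plot of THI4 and THI2. In HS the THI20 arrays at 30 and 40% lay at 1.46 to 3.68, above the 8 arrays at 0 to 20%, and in LS the highest value of THI6, THI20, THI21 and THI22 was on an array at 20%.

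SNZ1 and SNO1 encode the synthase and glutaminase subunits of the pyridoxal phosphate complex and lie next to each other on chromosome XIII in the R64 annotation. In HS yeast SNO1 had 2.02 and 2.84 without sucrose, 3.33 and 4.05 at 5%, 1.18 and 4.04 at 10%, and 1.21 and 3.91 at 20%. It had 0.745 and 1.18 at 30%, 0.308 and 0.108 at 40%, and 0.148 and 0.743 at 50%. Every HS array at 30, 40 and 50% lay below the 6 at 5-20%, at 30% by no more than 1.179 against 1.181 at the edges. At 40 and 50% that is the opposite side from THI4 and THI2, whose levels at 30% overlapped those at 5-20%.

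SNO1 in HS differed from its level at 5-20% by -3.83 ± 1.14 at 40% (adjusted p = 0.0884; 95% interval -6.21 to -1.45) and by -2.97 ± 1.14 at 50% (adjusted p = 0.0873; 95% interval -5.35 to -0.59). Neither was called with all arrays. Without the 6 LS arrays both were, at an adjusted p of 0.00239 at 40% and 0.00362 at 50%, where 21.5% and 47.3% of all probe sets were called. Fitting the HS arrays alone also gave both calls (adjusted p = 0.00396 at 40%, where 19.8% of all probe sets were called, and 0.00542 at 50%, where 46.1% were), as did quantile normalization of all arrays (-4.91 at 40%, adjusted p = 0.0121, and -3.71 at 50%, adjusted p = 0.0327, where 26.8% were). The difference between 5-20% and 0% was 0.12 ± 1.14, with a 95% interval from -2.27 to 2.50.

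SNZ1 in HS had 3.05 and 2.18 without sucrose, 3.91 and 3.13 at 5%, 1.33 and 3.52 at 10%, and 0.977 and 3.13 at 20%. It had 0.823 and 1.34 at 30%, 0.466 and 0.44 at 40%, and 0.451 and 2.09 at 50%. The pair at 40% lay below the 6 arrays at 5-20%, whereas the arrays at 50% differed 4.64-fold from each other. The difference of 40% from 5-20% was -2.39 ± 1.0 (adjusted p = 0.296 with all arrays, 0.0132 without the 6), and that of 50% was -1.28 ± 1.0 (adjusted p = 0.443).

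In LS yeast SNO1 had 7.34 and 0.264 without sucrose, 9.35 and 0.379 at 5%, 4.0 and 1.82 at 10%, and 0.821 and 0.254 at 20%. It had 0.122 and 0.232 at 30%, 0.129 and 0.212 at 40%, and 0.529 and 1.60 at 50%. The 4 arrays at 30 and 40% lay below every other LS array, and the first and second arrays differed 27.8-fold without sucrose and 24.7-fold at 5%. The differences from 5-20% were -2.98 ± 1.14 at 30% (adjusted p = 0.273) and -3.00 ± 1.14 at 40% (adjusted p = 0.0745), not called with all arrays. Without the 6 they were -4.68 at 30% (adjusted p = 0.0189) and -4.24 at 40% (adjusted p = 0.000621), with -2.57 at 50% (adjusted p = 0.0429), where 6.38%, 54% and 49.7% of all probe sets were called.

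SNZ1 in LS had 3.98 and 0.541 without sucrose, 7.31 and 0.653 at 5%, 3.89 and 0.78 at 10%, and 1.02 and 0.134 at 20%. It had 0.18 and 0.0447 at 30%, 0.644 and 0.778 at 40%, and 1.47 and 0.947 at 50%. Its lowest group mean was at 30% in LS and at 40% in HS, a difference that was not tested. SNO1 had its lowest group mean at 40% in both yeasts. In LS, though, its means at 40% (0.165) and 30% (0.168) were nearly equal and the arrays overlapped. In HS the arrays of both genes at 40% overlapped those at 50%. At 30% against 5-20% in LS 2 members and 12.3% of all probe sets had an unadjusted p under 0.05. The SNZ1 difference there was -3.64 ± 1.0 (adjusted p = 0.105, with 0 members called where 0.491% of all probe sets were). Without the 6 arrays it was -4.09 (adjusted p = 0.0184, where 6.38% were called). With 5 and 10% alone in place of 5-20%, an alternative added after the data were seen, SNZ1 was called at 30% (-4.44, adjusted p = 0.0436, where 1.29% of all probe sets were called) and SNO1 at 40% (-3.77, adjusted p = 0.04, where 15.4% were). Without the 6, the LS difference of 40% from 5-20% was -2.12 for SNZ1 and -0.87 for THI21. The THI21 arrays at 40% (0.427 and 0.768) overlapped the 3 left at 5-20% (0.7 to 1.79), of which the one at 20% was the highest. The median S. pombe probe set in LS was lower at 30% than at 5-20% by -1.72 with all arrays. The HS minus LS difference of the response was not tested at 30%.

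The levels of the subunits over the arrays were alike. Over the 14 HS arrays the log2 ratios of SNZ1 and SNO1 had r = 0.927, over the 14 LS arrays r = 0.796, and over the 8 LS arrays other than the 6 r = 0.936. Their replicate differences had the same direction at 5 of 7 concentrations in each yeast. Where both genes differed more than 2-fold between replicates, the direction was the same at 3 of 3 concentrations in HS and 4 of 4 in LS. In LS these were 0, 5, 10 and 20%, and the lower array was each time replicate 2, among the 6 arrays. The pair of THI20 and THI21, set beside SNZ1 and SNO1, had the same direction at 4 of 7 concentrations in HS and 6 of 7 in LS. Genes read on the same array share its scaling, and the part that this plays was not tested.

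**Figure D3:**
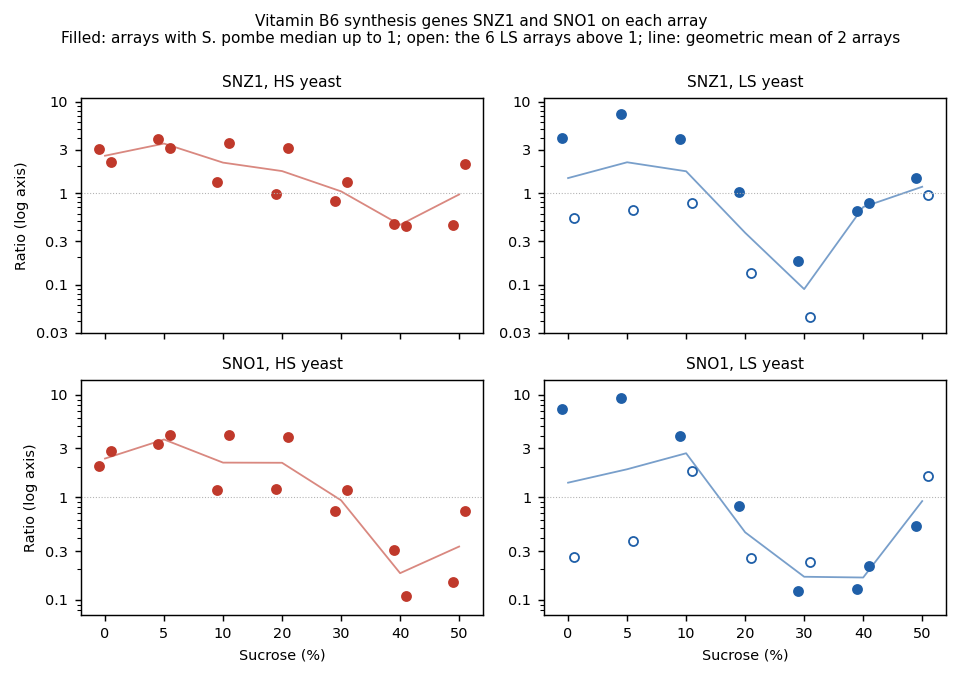
Ratios of SNZ1 and SNO1, the subunits of pyridoxal phosphate synthase, on each array, on a log axis, against sucrose in percent, with HS left and LS right. Points and lines are as in the plot of THI4 and THI2. SNO1 lay at 1.18 to 4.05 on the 6 HS arrays at 5-20% and at 0.108 to 0.308 at 40%, and the LS arrays at 30 and 40% lay at 0.122 to 0.232.

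HS was compared with LS as the mean over the 7 concentrations. THI2 was lower in HS by -1.50 ± 0.28, which is 2.84-fold (adjusted p = 0.00144), and THI4 was lower in HS by -2.18 ± 0.41, which is 4.54-fold (adjusted p = 0.00174). They were the 2 members called, where 15.4% of all probe sets were called and 11.4% were called lower. Both calls were made in all 36 alternative settings that allow the comparison, and without the 6 arrays the differences were -1.66 for THI2 (adjusted p = 0.000773) and -2.94 for THI4 (adjusted p = 1.15e-05), where 28.9% of all probe sets were called. For THI2 both HS arrays lay below both LS arrays at 6 of 7 concentrations, and at 50% both lay above. For THI4 both HS arrays lay below both LS arrays at 5 of 7 concentrations, and at the other two the ranges overlapped. The median S. pombe probe set was lower in HS by -2.41 with all arrays and by -1.03 without the 6.

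The other 7 members were not called between the yeasts, with differences from -0.40 ± 0.27 for THI20 to 0.95 ± 0.46 for SNZ1 (adjusted p = 0.159; 95% interval -0.01 to 1.92). With all arrays, no response of a member to sucrose differed between HS and LS at an adjusted p under 0.05. For 5-20% against 0%, limma called 0 members and 0.655% of all probe sets. An unadjusted p under 0.05 was found for 1 member and 8.55% of all probe sets. The THI4 value there was -2.88 ± 1.25 (adjusted p = 0.502), with -3.44 in HS and -0.56 in LS, and without the 6 arrays no member was called where 1.38% of all probe sets were. In LS itself this step called 0 members and 0.109% of all probe sets, with an unadjusted p under 0.05 for 0 members and 7.04% of all probe sets. For the HS minus LS difference at 40%, limma called 0 members and 0.418% of all probe sets. Here 1 member and 12.2% of all probe sets had an unadjusted p under 0.05.

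At 50% the HS minus LS difference of the response was 2.62 ± 0.84 for THI2 (adjusted p = 0.198), 3.21 ± 1.25 for THI4 (adjusted p = 0.331), 2.22 ± 0.95 for THI7 (adjusted p = 0.37), 2.06 ± 0.82 for THI20 (adjusted p = 0.336) and 2.26 ± 0.82 for THI22 (adjusted p = 0.274). These are the 5 members with an unadjusted p under 0.05, where 11.4% of all probe sets had one. At an adjusted p under 0.05 limma called 0 members and 0.491% of all probe sets. Without the 6 arrays THI2 was called at 50% (2.65, adjusted p = 0.0498, where 12.7% of all probe sets were called), and at 40% THI4 (2.04, adjusted p = 0.0427), THI7 (1.95, adjusted p = 0.0492) and THI20 were called.

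**Figure D4:**
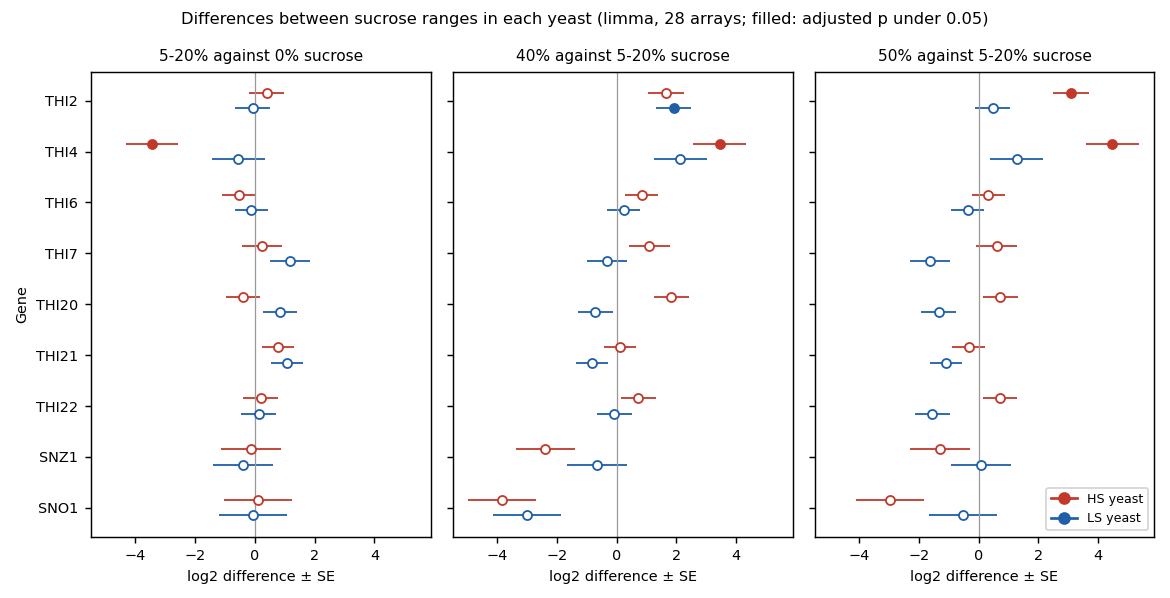
Log2 differences of the 9 members for 5-20% against 0%, 40% against 5-20% and 50% against 5-20% sucrose, with HS above LS for each gene. Bars are ± SE from limma with all 28 arrays, and filled points were called at an adjusted p under 0.05. The called points are THI4 in HS in all 3 comparisons, THI2 in HS at 50% and THI2 in LS at 40%.

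The other genes of the pathways were read from lists by role. Of 12 further thiamine genes 9 had a probe set, and THI5, THI11 and THI12 had none under their own names. THI13, a pyrimidine synthesis gene of the THI5 family, was read by a probe set of the s_at type, which can read near-identical family members, so its values may belong to the family. In HS it had 1.17 and 0.971 without sucrose, 0.0454 to 0.171 on the 6 arrays at 5-20%, 0.106 and 0.274 at 30%, 1.34 and 2.23 at 40%, and 5.16 and 7.87 at 50%. Its order over sucrose was that of THI4, with a trough at 5-20%.

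THI13 in HS was lower at 5-20% than at 0% by -3.66 ± 1.03 (adjusted p = 0.0296) and rose by 4.36 ± 1.03 at 40% (adjusted p = 0.0253) and by 6.24 ± 1.03 at 50% (adjusted p = 0.000493) against 5-20%. In LS it had 3.99 and 0.207 without sucrose, 0.271 to 1.05 at 5-20%, 7.56 and 6.81 at 30%, 25.8 and 14.2 at 40%, and 47.9 and 1.82 at 50%. It rose in LS by 5.01 ± 1.03 at 40% (adjusted p = 0.00235) and by 3.98 ± 1.03 at 50% (adjusted p = 0.00898), and the difference at 50% was not called after quantile normalization (adjusted p = 0.102) or with LS fitted alone (0.0811). Between the yeasts it was lower in HS by -2.52 ± 0.48 (adjusted p = 0.00178).

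PET18, of a protein family related to bacterial thiaminases, had ratios in HS of 0.716 and 0.731 without sucrose, 0.235 to 0.57 at 5-20%, 0.971 and 1.99 at 30%, 3.35 and 1.40 at 40%, and 1.34 and 0.96 at 50%. It rose in HS by 2.56 ± 0.59 at 40% against 5-20% (adjusted p = 0.0229). That made 2 of the 9 further thiamine genes called higher there, where 0.873% of all probe sets were. At 50% in HS 1 of the 9 was called higher (THI13) and 1 lower (THI72), where 8% and 7.06% of all probe sets were. THI72, a relative of the THI7 transporter, differed by -3.74 ± 1.04 (adjusted p = 0.0195). That value rests on 1 array at the table's minimum of 0.01 beside one at 0.772. At 40% and at 50% in LS 1 of 9 was called higher, again THI13, where 9.73% and 11% of all probe sets were. Of the 9, 0 were called lower, where 8.17% and 11.1% of all probe sets were.

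Of the 9 further thiamine genes, 4 were lower in HS than in LS over the 7 concentrations, where 11.4% of all probe sets were called lower, and 0 were higher. These were THI13, the permease gene THI73 (-1.01 ± 0.28, adjusted p = 0.0213), the acid phosphatase PHO3, which releases thiamine from its phosphates (-1.16 ± 0.34, adjusted p = 0.028), and PET18 (-1.01 ± 0.27, adjusted p = 0.0185; 0.0803 after quantile normalization). At 40% PHO3 had the other order, with 2.63 and 1.87 in HS against 0.847 and 0.437 in LS. At 30% its ranges overlapped, with 1.54 and 3.08 in HS against 3.12 and 1.045 in LS. The ranges at 40% also overlapped for PET18 (3.35 and 1.40 in HS, 1.735 and 1.12 in LS) and THI73 (2.87 and 0.837 in HS, 1.23 and 1.10 in LS). For THI13 both HS arrays at 40% lay below both LS arrays. The list's median was -0.94, the 9 members' median was -0.20 and that of all probe sets was -0.02.

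Of 8 further vitamin B6 genes 6 were measured. TPN1, the plasma membrane pyridoxine importer, was lower at high sucrose than at 5-20% in both yeasts. Without sucrose it had 0.66 and 0.65 in HS, also below every HS array at 5-20%, and 1.465 and 0.991 in LS. It had 0.303 and 0.513 in HS at 50% against 1.01 to 1.52 at 5-20%, a difference of -1.61 ± 0.52 (adjusted p = 0.0429). In LS it had 0.501 and 0.508 at 40% and 0.67 and 0.374 at 50%, against 0.774 to 5.80 at 5-20%, with differences of -2.11 ± 0.52 (adjusted p = 0.00833) and -2.12 ± 0.52 (adjusted p = 0.00674). Both LS calls were lost with LS fitted alone (adjusted p = 0.142 at 40% and 0.12 at 50%). BUD16, a putative pyridoxal kinase, was also lower in LS at 50% (-1.40 ± 0.47, adjusted p = 0.0371). That call was lost after median centring (adjusted p = 0.0622), after quantile normalization (0.283) and with LS fitted alone (0.258). Of the 6, 1 was called lower in HS at 50%, 1 in LS at 40% and 2 in LS at 50%, where 7.06%, 8.17% and 11.1% of all probe sets were called lower, and 0 were called higher. SNO3, read by an s_at probe set that its near-identical copy can share, and BUD17, another putative pyridoxal kinase, were higher in HS than in LS by 0.87 ± 0.24 (adjusted p = 0.0213) and 1.37 ± 0.41 (adjusted p = 0.0306). The BUD17 difference was 0.40 without the 6 arrays (adjusted p = 0.218).

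**Figure D5:**
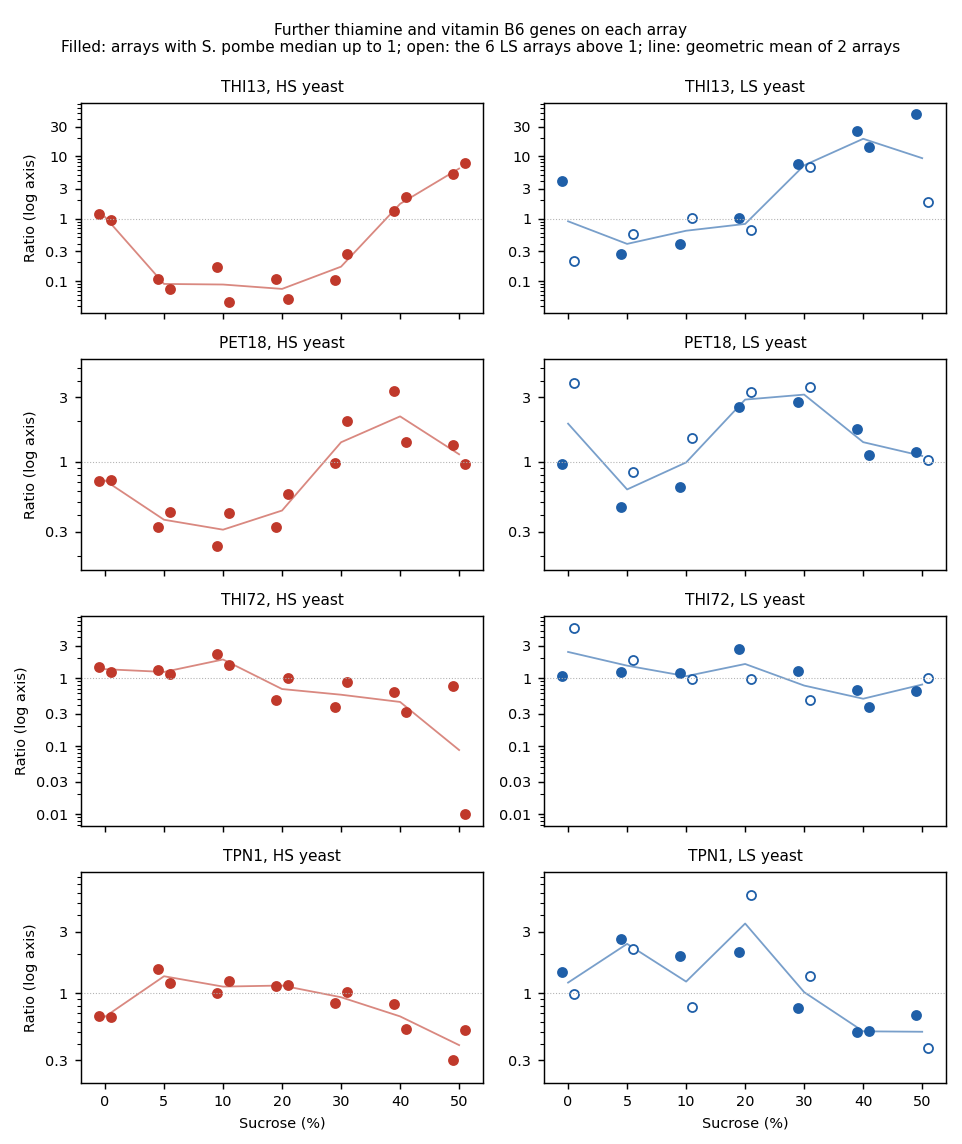
Ratios of THI13 (pyrimidine synthesis), PET18 (thiaminase family), THI72 (transporter family) and TPN1 (pyridoxine importer) on each array, on a log axis, against sucrose in percent, with HS left and LS right. Points and lines are as in the plot of THI4 and THI2. THI13 lay at 0.0454 to 0.171 on the 6 HS arrays at 5-20% and at 5.16 and 7.87 at 50%, and 1 THI72 array in HS at 50% lies at the table's minimum of 0.01.

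Of 11 genes of enzymes that use thiamine pyrophosphate, 4 were called higher at 50% against 5-20% in HS, where 8% of all probe sets were: the pyruvate decarboxylases PDC5 (2.07 ± 0.65, adjusted p = 0.0372) and PDC6 (3.55 ± 0.85, adjusted p = 0.00783), the phenylpyruvate decarboxylase ARO10 (6.05 ± 1.16, adjusted p = 0.0015) and the minor transketolase TKL2 (5.32 ± 0.88, adjusted p = 0.000508). At 40% 1 was called higher in HS (TKL2, 3.59 ± 0.88, adjusted p = 0.0318), where 0.873% of all probe sets were. In LS 4 were called higher at 40%, PDC6, ARO10, TKL2 and the 2-oxoglutarate dehydrogenase subunit KGD1 (2.76 ± 0.78, adjusted p = 0.0186), where 9.73% of all probe sets were. With LS fitted alone PDC6 (adjusted p = 0.194) and KGD1 (0.141) were not called at 40%. At 50% in LS 3 were called higher, PDC6, ARO10 and TKL2, and 1 lower, PDC5 (-1.84 ± 0.65, adjusted p = 0.0488), where 11% of all probe sets were called higher and 11.1% lower. The PDC5 call was lost after median centring (adjusted p = 0.0673), after quantile normalization (0.191) and with LS fitted alone (0.246), and the PDC6 call at 50% after quantile normalization (0.0594) and with LS fitted alone (0.0789).

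PDC6 and TKL2 shared with THI4 a lower level at 5-20% than at 0% in HS, by -4.75 ± 0.85 (adjusted p = 0.00141) and -5.79 ± 0.88 (adjusted p = 0.000464). They were 2 of the 11 called there, where 5.51% of all probe sets were called lower. For TKL2 that response differed between HS and LS by -5.85 ± 1.25 (adjusted p = 0.0343 with all arrays, 0.0603 without the 6). PDC6 was lower in HS than in LS over the 7 concentrations by -1.28 ± 0.39 (adjusted p = 0.0347). The main pyruvate decarboxylase PDC1 was not called in any comparison, and neither was GCN4, the activator of amino acid synthesis genes that is known to act on SNZ1 and SNO1. The arrays read the GCN4 transcript, and the activity of its protein was not measured.

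Genes with the most similar pattern were ranked by the lower of 2 Pearson correlations of log2 ratios, one over the 14 HS arrays and one over the 14 LS arrays. For THI4 these were TAM41 (r = 0.919 in HS and 0.912 in LS), PRC1 (0.872 and 0.862) and HVG1 (0.925 and 0.851). For SNZ1 they were DPP1 (0.851 and 0.890), ATO3 (0.842 and 0.873) and NIT1 (0.833 and 0.838). For SNO1 they were NIT1 (0.897 and 0.820), ERG24 (0.881 and 0.797) and SNZ1 (0.927 and 0.796), so that its neighbour and partner subunit was the third of the 5497 other probe sets. Over the 8 LS arrays other than the 6, the r of TAM41 and HVG1 with THI4 was 0.684 and 0.544, and that of the others was 0.861 to 0.948. Genes read on the same arrays share each array's scaling and the sucrose series, so these values describe likeness only.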

How the data were processed

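Biotin-labelled poly(A) RNA was read on an Affymetrix array of 10928 probe sets. The deposited values are a ratio on a linear scale. Per the series design text, the authors used GeneSpring v7.0 to scale each chip on its positive genes, excluding S. pombe, and to scale each gene after that. In the table, 97.7% of S. cerevisiae probe sets had a median within 0.01 of 1, and values ran from 0.01 to 532.3. The summary over probes is not stated in the labels. A single gene symbol was annotated for 7244 probe sets, several for 1 and no symbol for 3683. Tests covered 5498 named probe sets of S. cerevisiae, with 12 symbols updated through the R64 gene table.

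Log2 ratios were fitted unscaled with limma 3.58.1 (R 4.3.3), 1 mean for each of the 14 groups over 28 arrays and eBayes without a trend with 14 residual and 5.41 prior degrees of freedom. All p-values are 2-sided and were adjusted within a comparison by the Benjamini-Hochberg method. The number of arrays limits the precision. The fit was also run on simulated data with independent noise on each array. That run cannot show how the fit fares where the groups of a yeast deviate together.

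The members and lists were chosen with earlier results of these data known. All 9 members were named, other pathway genes where called or as regulators, and the 3 most alike genes for each of THI4, SNZ1 and SNO1. Alternatives were quantile normalization, median centring, an offset of 0.0564, a variance trend with robust moderation, a filter on 125 probe sets of low signal, a replicate block, each yeast fitted alone, the 6 LS arrays left out, and each array left out. After the data were seen, 20% against 5 and 10%, 5-10% in place of 5-20%, and a replicate block within each yeast were added. Sequences were not used here.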

Additional observations from a re-analysis of the deposited data

How the results depend on the processing

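Over 15 comparisons of 9 members, the 38 alternatives gave 5049 values. Of these 25 lost a call, 71 gained one, 4833 kept sign and side of the threshold, 120 changed sign without a call in either fit, and 0 changed sign with a call. The share of all probe sets called moved too. At 40% in HS it was 2.42% in the main fit, 15.1% after quantile normalization and 19.8% with HS fitted alone. In LS at 40% it was 17.9%, then 4.17% with LS fitted alone and 15.4% with 5-10% in place of 5-20%. At 30% it went from 0.0182% to 1.24% in HS after quantile normalization, and from 0.491% to 1.29% in LS with 5-10%. Shares without the 6 arrays stand beside the calls above. The number of members called moved by over 1.5 times as follows. At 40% against 5-20% in HS, 1 call became 7 after quantile normalization, 5 without the 6 LS arrays, 5 with each yeast fitted alone, 3 with the replicate block within each yeast, and 0 with the offset, with the variance trend and robust moderation, and with 5-10% in place of 5-20%. In LS at 40%, 1 call became 0 after quantile normalization, 0 with LS fitted alone, 5 without the 6 arrays, 3 with the replicate block within each yeast and 2 with 5-10% in place of 5-20%. From 0 calls, HS at 30% gained 1 after quantile normalization, and LS at 30% gained 2 without the 6 arrays, 1 with the replicate block within each yeast and 1 with 5-10% in place of 5-20%. LS at 50% went from 0 to 2 with the replicate block (THI7 and THI22), to 2 with it within each yeast and to 2 without the 6. The HS minus LS difference went from 0 to 1 after quantile normalization and 3 without the 6 at 40%, and to 1 without the 6 at 50%. The cause was not tested. Leaving out 1 array at a time gave 0 to 2 members called in HS at 40%, 0 to 1 at 5-20% against 0%, 1 to 3 at 50% and 0 to 0 at 30%. In LS it gave 0 to 1 at 30%, 0 to 2 at 40%, 0 to 2 at 50% and 0 to 3 at 20% against 5-10%, and for HS against LS 2 to 2. For the HS minus LS difference it gave 0 to 1 at 50% and 0 to 0 elsewhere. Replicate differences of pairs of groups correlated at -0.021 to 0.427 within HS (median 0.288), -0.15 to 0.714 within LS (median 0.392) and -0.279 to 0.295 between HS and LS (median -0.0933). Groups of 1 yeast thus mostly deviated together, but not every pair did, and the labels give the numbers no meaning. A block within each yeast was added after the data were seen. A single replicate block changed the count of calls in no comparison but LS at 50%. No member has a second probe set, so that alternative could not be run.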
